A study of Mus musculus with 12 samples.

Results

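The interferon response genes are 40 mouse genes that interferons induce in most cell types or that carry the interferon signal, and they were taken by gene symbol from a fixed list. 9 of them sense foreign nucleic acids, receive the signal or transcribe its targets, 23 are antiviral effectors or their regulators, and 8 are interferon-induced GTPases. 39 of the 40 were present in all 12 count tables, and all 39 passed the filter on low counts. They were read against the 11689 genes tested, out of 20838 genes shared by the tables. Mx1, an antiviral GTPase, is listed in 9 of the 12 tables and has no test.

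RNA was sequenced from regulatory T cells (Treg), the Foxp3-expressing CD4 T cells that restrain immune responses, of DEREG mice with a venous thrombus. DEREG mice are C57BL/6 animals that carry a transgene in which Foxp3 regulatory sequence drives a diphtheria toxin receptor fused to EGFP, and the labels name no toxin treatment. Thrombosis was induced by ligating the inferior vena cava, which reduces flow, and tissue was taken on day 14. The groups were thrombus Treg, vein wall Treg and spleen Treg, with 4 libraries each, all sorted as live CD45+ CD4+ EGFP+ CD69+ cells, CD69 being a marker of recent activation and tissue retention. All groups come from ligated mice, so spleen Treg serve as the tissue set against the others and not as an untreated control. The sources used here do not give the age of the mice, any pooling of animals, or whether the tissues came from the same mice, so the p-values reflect no more than the spread among these samples, which may be partly technical.

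Type I interferons bind a receptor made of Ifnar1 and Ifnar2, and the kinases on it phosphorylate STAT2. With IRF9, STAT2 is part of the factor ISGF3, which binds the interferon-stimulated response element (ISRE) in the promoters of antiviral genes. Gamma interferon acts through another receptor and the gamma-activated site (GAS), and induces Irf1 and the immunity-related and guanylate-binding GTPases in particular. In Treg, interferon signalling is known to alter suppressive function, and the thrombus is a site where inflammatory leukocytes gather.

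The ISRE core was found in the promoters of many of the genes, and the windows of 7 members that the results describe are shown to let their sites be compared. The bases are RefSeq's for build GRCm38.p6, read 5′ to 3′ on the strand of the gene, and capitals mark ISRE core matches.
Stat2 (chr10:128270251-128270310, plus strand): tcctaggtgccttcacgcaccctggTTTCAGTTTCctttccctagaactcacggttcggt
Isg15 (chr4:156200856-156200915, minus strand): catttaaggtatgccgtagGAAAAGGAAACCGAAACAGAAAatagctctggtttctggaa
Ifit3 (chr19:34583365-34583424, plus strand): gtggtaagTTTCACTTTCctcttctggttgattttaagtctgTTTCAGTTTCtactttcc
Rsad2 (chr12:26456538-26456597, minus strand): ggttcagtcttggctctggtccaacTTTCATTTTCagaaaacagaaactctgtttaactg
Bst2 (chr8:71537565-71537624, minus strand): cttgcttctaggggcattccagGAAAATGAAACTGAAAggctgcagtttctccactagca
Irgm1 (chr11:48871421-48871480, minus strand): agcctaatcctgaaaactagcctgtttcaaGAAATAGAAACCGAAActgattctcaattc
Igtp (chr11:58199496-58199555, plus strand): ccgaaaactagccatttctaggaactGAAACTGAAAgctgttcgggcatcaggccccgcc
RefSeq promoters were at hand for 32 of the 40 members. The ISRE core, which is GAAA, any 2 bases and GAAA again on either strand, lay within 250 bases upstream of the start in 14 of these 32 (43.8%), against 936 of 27025 genes with a promoter (3.46%). The GAS, TTCNNNGAA on either strand, lay there in 10 of 32 members (31.2%), against 2197 of 27025 genes (8.13%). In Bst2 the sites of both kinds overlap. Among the windows shown, 3 ISRE cores overlap in one run in Isg15, and Ifit3, Irgm1 and Bst2 hold 2 each. Gbp3, Oas1a and Ifit1, not shown, also hold 2 each. 13 of the 32 members had neither motif in this window, among them Irf7, Irf9, Ifi44 and Oasl2. A match describes the sequence, and its absence says only that these letters are not in this window.

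The samples held 9719151 to 55386086 exon reads per library. The libraries spleen 3 and 4, and likewise vein wall 3 and 4, differed far less than any other replicate pair (mean chi-square per gene 3.96 and 2.55, against 96.9 to 355 for other pairs), so each pair was summed and counted as 1 sample, leaving 4 thrombus, 3 vein wall and 3 spleen samples. The 12 tables fall into 3 sets that differ in their gene models, namely set 1 (thrombus 1, spleen 1), set 2 (thrombus 2, vein wall 1, spleen 2) and set 3 (all others). The leading principal component of all genes, with 23.4% of the variance, followed these sets (r-squared 0.901) and not the tissue (0.0285). All 8 Treg markers, Foxp3 among them, were read in every sample. Thrombus 2 stood apart in a list of 12 macrophage and monocyte genes, which summed to 2131 CPM there (CPM, counts scaled to a common library size), against 61.4 to 119 CPM in the other thrombus samples, 22.6 to 418 CPM in the vein wall and 99.4 to 223 CPM in the spleen. Its 10 dendritic cell genes summed to 108 CPM, against at most 33.9 CPM in any other sample. Its 9 CD8 T and NK cell genes summed to 321 CPM, against 39.7 to 182.5 CPM in the other samples. The 8 erythroid genes summed to 2043 CPM in thrombus 2, 1556 CPM in thrombus 4 and 1815 CPM in spleen 1, against 2.53 to 346 CPM in the rest. The 10 B and plasma cell genes summed to 1457 CPM in vein wall 1 and 986 CPM in thrombus 2, against 269.6 to 583 CPM in the rest. A list of 9 fibroblast genes summed to 7.83 to 27.3 CPM in the thrombus, 17.2 to 66.9 CPM in the vein wall and at most 0.536 CPM in the spleen. The part of these cells in the interferon values was not tested.

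Levels of different genes are compared here in RPKM, reads scaled by exon length and by library size, as the authors deposited them. The order of the genes was led in every tissue by Ifi27l2a, a small hydrophobic protein that interferon induces, with 1871 ± 528 RPKM in thrombus Treg, 2736 ± 1620.0 RPKM in vein wall Treg and 2206 ± 1101 RPKM in spleen Treg (SD, n = 4, 3 and 3). The exon length behind RPKM depends on the gene models. For Ifi27l2a it was 883 bases in set 2 and 463 bases in sets 1 and 3, and for 11 of 39 members it differed by more than 1.5-fold between sets, so that RPKM means and their order mix these models. Ifi27l2a was nonetheless the highest member in each of the 10 samples. It alone made up 20.3 to 38.6% of the members' summed CPM. Next came the GTPase Igtp at a mean of 156 RPKM over the 10 samples, the membrane tether Bst2 at 135, the GTPase Ifi47 at 134, Ifi35 at 116 and the transcription factor Irf1 at 90.1 RPKM, and neighbours among these 5 overlapped in the ranges of their samples. At the low end, Ifi44, Mx1 and Rsad2 averaged 1.47, 1.35 and 1.18 RPKM.

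**Figure D1:**
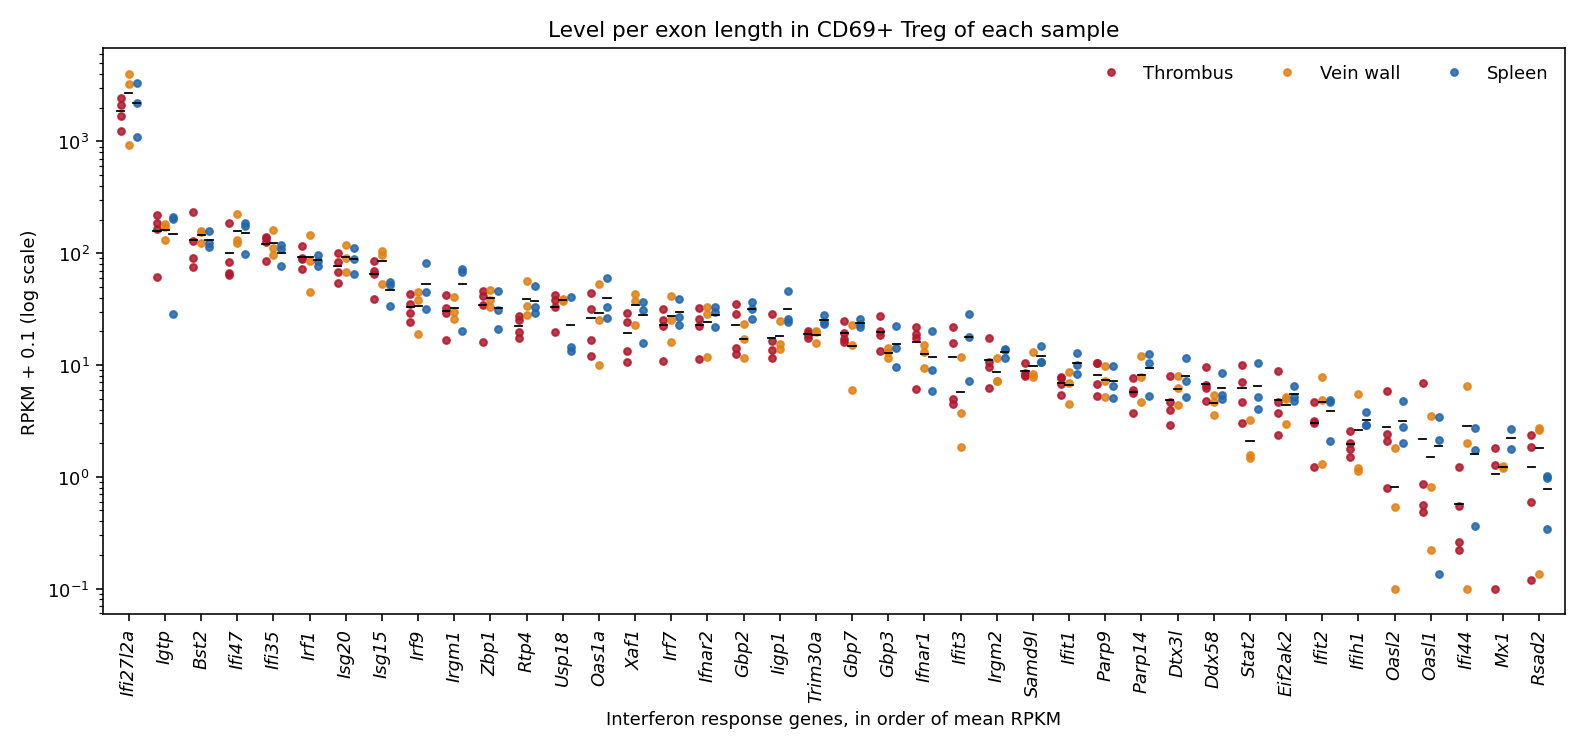
Deposited RPKM plus 0.1 (log scale) of the 40 interferon response genes in each sample of thrombus, vein wall and spleen Treg, ordered by mean RPKM, with a black line at the mean of each tissue. Ifi27l2a lies far above the rest at a mean of 2231 RPKM, Rsad2 ends the order at 1.18 RPKM, and the tissues overlap for most genes.

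In thrombus Treg set against spleen Treg, no interferon response gene changed by edgeR's quasi-likelihood test with Benjamini-Hochberg adjustment over all genes (0 of 39 at an adjusted p under 0.05, against 0.145% of all genes tested, which were 17 genes). DESeq2 called 0 members (0.898% of all genes), and edgeR with the set of files as a covariate 0 (0.453%). The smallest adjusted p of a member was 0.9997 with tissue alone in edgeR, 0.5095 once the set was a covariate, and 0.9891 by DESeq2. At an unadjusted p under 0.05 there was 1 member, Irgm1, which was lower, against 1.14% of all genes lower and 4.14% in either direction. With the set as a covariate there were 3, Irgm1, Iigp1 and Ifi47, all lower, against 3.31% of all genes lower. The log2 fold changes were above 0 for 13 members and below 0 for 26, with a median of -0.23, against 0.03 over all genes tested. Within the sets of files the members' median was -0.32 in set 1, 0.10 in set 2 and -0.41 in set 3, and leaving out thrombus 2 gave -0.37. The direction of the list's median was thus not the same in every set.

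In vein wall Treg set against spleen Treg, again 0 of 39 members passed by edgeR, against 0.111% of all genes tested, 0 by DESeq2 (1.02% of all genes) and 0 with the set of files as a covariate (0.411%). The smallest adjusted p of a member was 0.8173 with tissue alone in edgeR, 0.375 once the set was a covariate, and 0.4123 by DESeq2. At an unadjusted p under 0.05, Isg15 was higher and Irgm1 and Stat2 were lower, against 2.97% of all genes higher and 2.5% lower (5.47% in either direction). With the set as a covariate no member was higher at this threshold and 5 were lower, namely Irgm1, Iigp1, Ifit3, Stat2 and Oasl2, against 3.82% of all genes lower. 17 members lay above 0 and 22 below, with a median log2 fold change of -0.10 against -0.01 over all genes. Within set 2 the median was -0.12 and within set 3 it was -0.19.

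In thrombus Treg set against vein wall Treg, 0 of 39 members passed by edgeR and 0 by DESeq2, where edgeR called 0.0% of all genes tested, with or without the set of files as a covariate, and DESeq2 0.0856%. At an unadjusted p under 0.05 in edgeR, Stat2 was higher and Rtp4 was lower, against 2.21% of all genes higher and 0.702% lower (2.91% in either direction). With the set as a covariate Stat2 and Oasl2 were higher, and Rtp4, Ifi44 and Ifi47 were lower, against 2.53% of all genes higher and 1.67% lower. 14 members lay above 0 and 25 below, and the median was -0.08 against 0.04 over all genes, with 0.09 within set 2, -0.13 within set 3 and -0.15 without thrombus 2. The comparisons share samples, so their counts are not independent of one another.

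**Figure D2:**
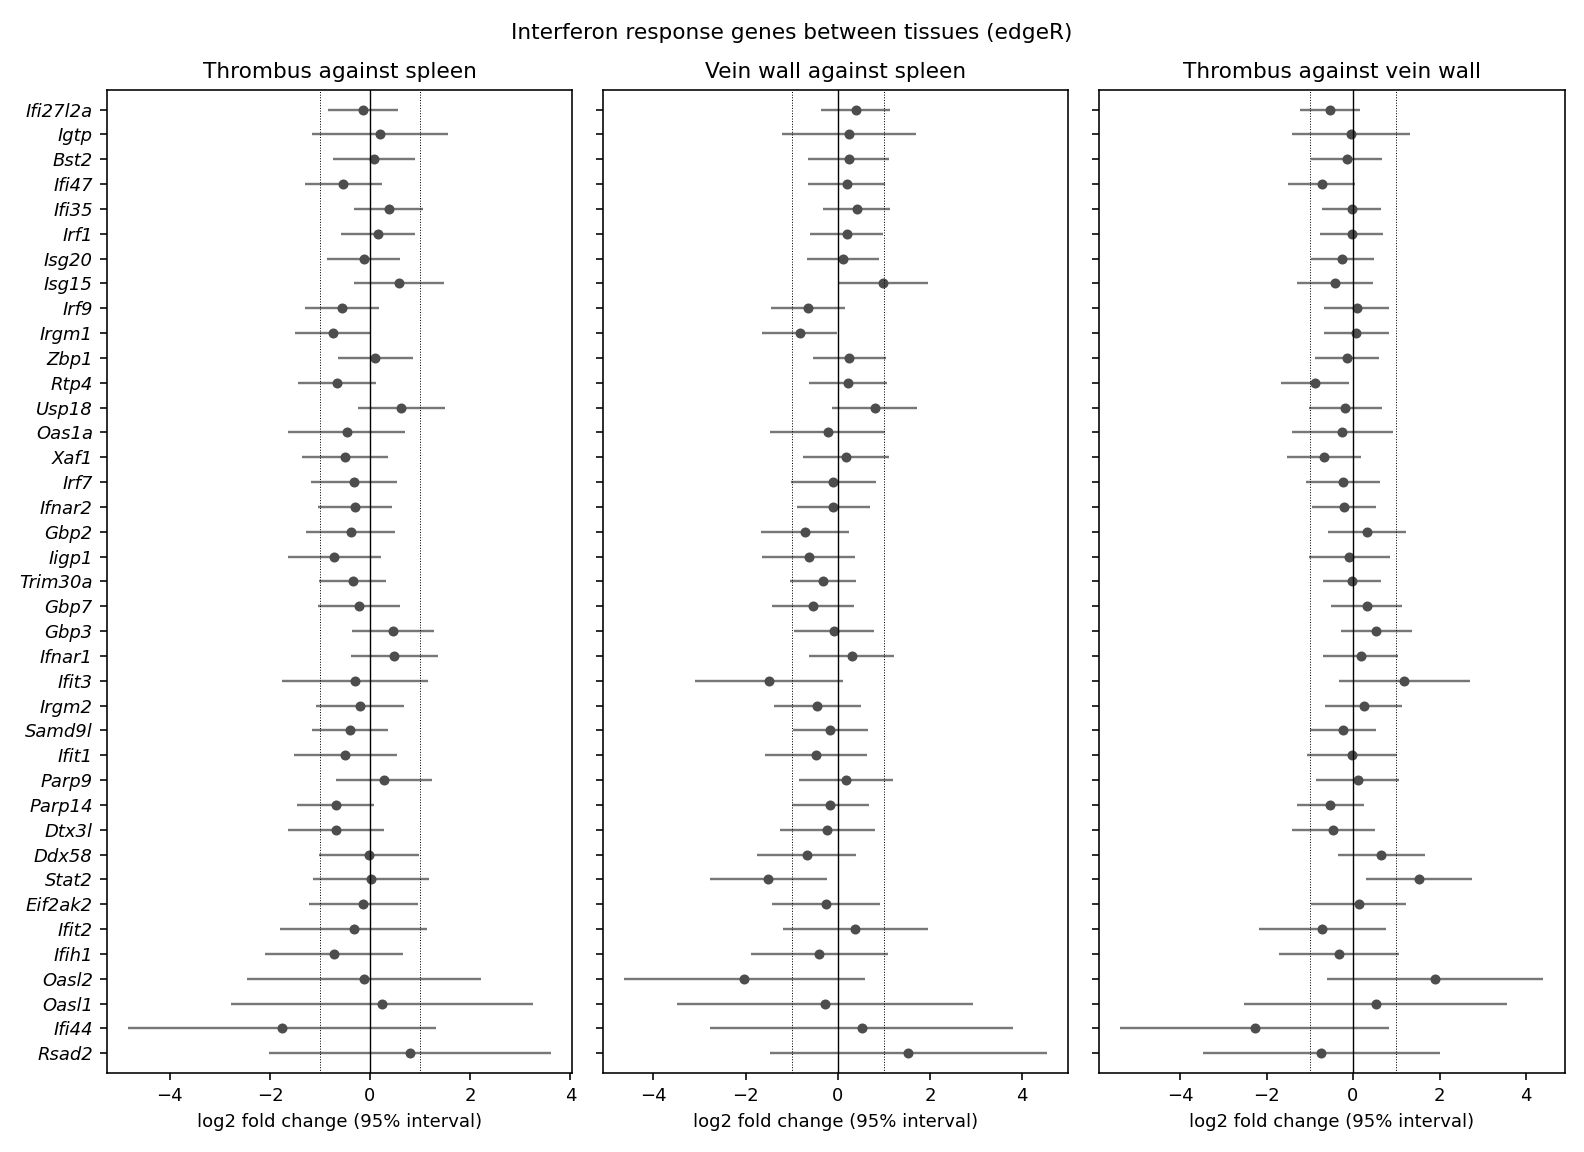
Log2 fold change from edgeR, with a 95% interval derived from its test, for the 39 tested interferon response genes, in the order of mean RPKM, for thrombus against spleen, vein wall against spleen and thrombus against vein wall, with dotted lines at a 2-fold difference. Most intervals cross 0 and reach past a dotted line, and those of Oasl2, Oasl1, Ifi44 and Rsad2 are the widest.

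These tests do not show that the genes are at the same level in the 3 tissues. On simulated counts for thrombus against spleen, over 11689 genes, the edgeR test recovered 0 of 100 genes changed 2-fold and 21 of 100 changed 4-fold. The changed genes were drawn at random from those above a mean of 5 CPM, each with its own estimated spread. The members vary less than all genes tested (median within-tissue SD 0.52 against 0.80 on the log2 CPM scale), so their own recovery may differ. The 95% interval of the log2 fold change stayed within a 2-fold difference in both directions for 5 of 39 members in thrombus against spleen, which were Isg20, Irf1, Bst2, Zbp1 and Ifi27l2a. It did so for 6 in vein wall against spleen and for 10 in thrombus against vein wall. Irf1 and Isg20 were within it in all 3 comparisons. For the other members the interval reached past a 2-fold difference in at least one direction. Estimated differences past 2-fold were found for 1, 4 and 4 of 39 members, against 19.96%, 24.2% and 19.3% of all genes tested.

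**Figure D3:**
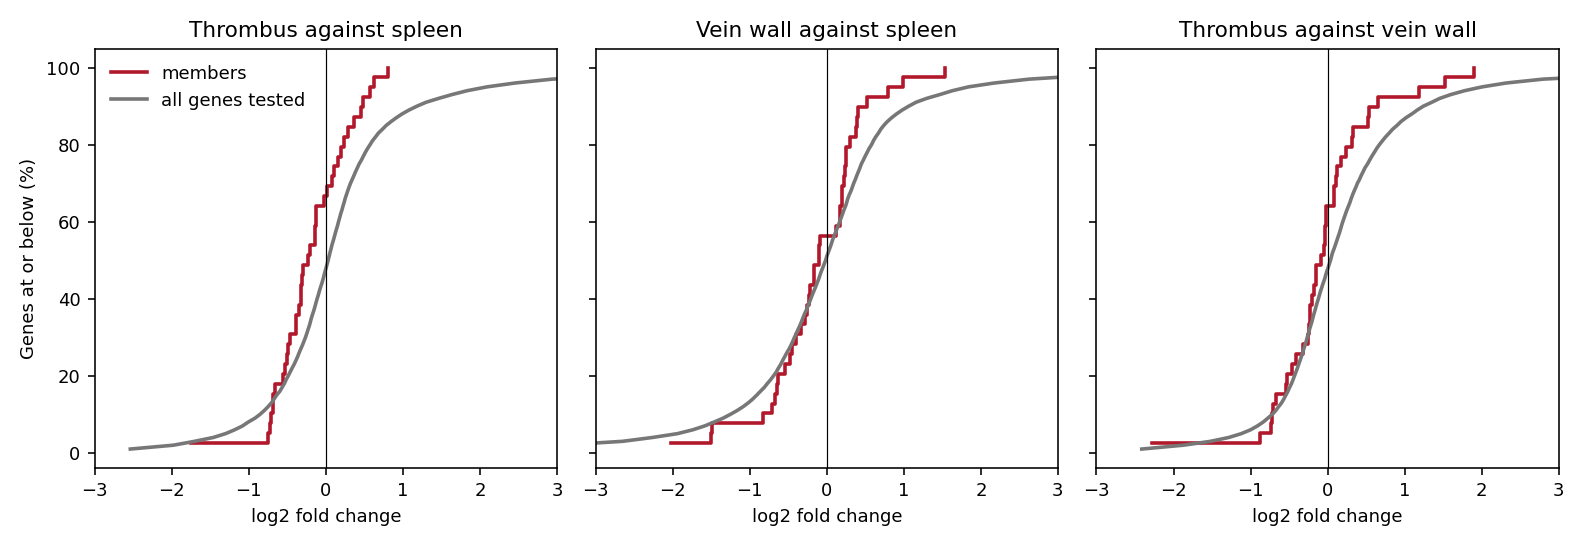
Share of genes (%) at or below each log2 fold change, for the 39 interferon response genes and for all 11689 genes tested, in the 3 comparisons. In thrombus against spleen the members' line lies left of that of all genes around 0, with 26 of 39 members below 0. In every panel a smaller share of the members than of all genes lies past a 2-fold difference.

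Among the genes of the receptor, Ifnar1 stood at 141, 61.5, 92.6 and 96.9 CPM in thrombus samples 1 to 4, 130.0, 48.7 and 81.2 CPM in vein wall samples 1, 2 and the summed 3 and 4, and 60.6, 55.2 and 94.5 CPM in spleen samples 1, 2 and the summed 3 and 4; values below keep this order. The tissues overlap, with thrombus 1 and vein wall 1 the highest. Ifnar2, the high-affinity subunit, stood at 118, 68.2, 100.3 and 113 CPM in thrombus, 68.3, 126 and 149.7 CPM in vein wall and 126, 123 and 119.7 CPM in spleen Treg. All 4 thrombus samples lay below all 3 spleen samples, which were close together, while the vein wall samples lay on both sides. The log2 fold change of thrombus against spleen was -0.30 ± 0.35 (SE; adjusted p = 0.9997, edgeR). Of the gene's reads, 45.3% matched more than 1 place, with 48.3% in set 1, 9.16% in set 2 and 53.1% in set 3.

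Ifnar2 was 1 of 3 members whose groups did not overlap in thrombus against spleen, all of them lower, against 2.5% of all genes lower in that way and 5.0% in either direction. The others were Irf9 and Ifit1. Irf9, the DNA-binding part of ISGF3 (chr14:55603571-55610030), had 174, 166, 155 and 102 CPM in thrombus, 143, 196 and 83.0 CPM in vein wall and 193, 294 and 175 CPM in spleen Treg. The highest thrombus sample lay just under the lowest spleen sample, so that the separation is narrow. Its log2 fold changes were -0.56 ± 0.36 in thrombus against spleen and -0.65 ± 0.38 in vein wall against spleen (SE; adjusted p = 0.9997 and 0.9455, edgeR).

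Stat2, which joins IRF9 in ISGF3 (chr10:128270559-128292849), was the member with the lowest vein wall values relative to the other tissues among the factors. It had 33.4, 29.9, 17.7 and 57.9 CPM in thrombus, 9.25, 18.6 and 8.28 CPM in vein wall and 52.1, 24.0 and 26.7 CPM in spleen Treg, or 34.7 ± 16.9, 12.1 ± 5.72 and 34.3 ± 15.5 CPM (mean ± SD, n = 4, 3 and 3). The vein wall samples all lay below the spleen samples, while vein wall 2 reached past thrombus 3. The log2 fold change was -1.51 ± 0.61 in vein wall against spleen (95% interval -2.78 to -0.23; unadjusted p = 0.0228, adjusted p = 0.8173, edgeR) and 1.53 ± 0.58 in thrombus against vein wall (adjusted p = 0.9994). Within the sets of files it was -1.33 in set 2 and -1.07 in set 3 for vein wall against spleen, and 1.64 and 1.33 for thrombus against vein wall. All of its reads matched 1 place only. Its promoter holds a single ISRE core, printed above, with its first base at -222 from the RefSeq start. The bases checked after this start were not found in GENCODE transcripts of the gene, a check that 29 of the 32 members with a promoter passed.

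The other factors overlapped between tissues. Irf1, which gamma interferon and T cell receptor signals induce, had 511, 434, 341 and 406 CPM in thrombus, 687, 396 and 213 CPM in vein wall and 351, 382 and 401 CPM in spleen Treg, and both the highest and the lowest value came from the vein wall. Irf7, which drives type I interferon production, had 84.6, 88.0, 73.5 and 34.0 CPM in thrombus, 111, 81.8 and 52.9 CPM in vein wall and 79.2, 70.5 and 113 CPM in spleen Treg, with thrombus 4 the lowest. Their log2 fold changes lay between -0.32 and 0.19 over the 3 comparisons.

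Of the cytosolic RNA sensors, Ddx58 (RIG-I) was the 1 member whose groups did not overlap between thrombus and vein wall Treg, against 2.35% of all genes higher in that way and 3.83% in either direction. It had 47.6, 33.4, 34.8 and 48.5 CPM in thrombus, 31.9, 27.7 and 18.8 CPM in vein wall and 67.8, 32.4 and 25.1 CPM in spleen Treg. Thrombus 2 and vein wall 1 were nearly equal, so the gap is small, and the log2 fold change of thrombus against vein wall was 0.65 ± 0.48 (SE; adjusted p = 0.9994, edgeR). Ifih1 (MDA5) had 22.3, 15.6, 10.6 and 12.1 CPM in thrombus, 8.11, 8.06 and 40.5 CPM in vein wall and 34.7, 21.5 and 18.9 CPM in spleen Treg. Thrombus 1 passed 2 of the 3 spleen samples, and the summed vein wall 3 and 4 was the highest of all. Its log2 fold change was -0.72 ± 0.66 in thrombus against spleen (adjusted p = 0.9997, edgeR). Zbp1, a sensor of Z-form nucleic acids, ranged from 62.0 CPM in thrombus 1 to 142 CPM in thrombus 2.

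Among the antiviral effectors, Isg15, a ubiquitin-like protein attached to other proteins under interferon (chr4:156199424-156200818), had 32.5, 93.3, 67.0 and 69.6 CPM in thrombus, 55.4, 106 and 101 CPM in vein wall and 44.5, 34.5 and 52.8 CPM in spleen Treg, or 65.6 ± 25.1, 87.4 ± 27.8 and 43.9 ± 9.16 CPM (mean ± SD, n = 4, 3 and 3). Every vein wall sample lay above every spleen sample, though vein wall 1 only just did. Thrombus 1 was the lowest of all 10 and the other 3 thrombus samples lay above the spleen. The log2 fold change of vein wall against spleen was 0.99 ± 0.46 (95% interval 0.04 to 1.95; unadjusted p = 0.0428, adjusted p = 0.8925, edgeR), and 0.67 within set 2 and 0.96 within set 3. With the set of files as a covariate it was 0.71 ± 0.46 (95% interval -0.25 to 1.68; unadjusted p = 0.139, adjusted p = 0.772), no longer past the unadjusted threshold. In set 2, 88.5% of the gene's reads matched more than 1 place, against 4.58% in set 1 and 5.95% in set 3. Isg15 was the only member that did not overlap upward in vein wall against spleen, against 6.76% of all genes, while Stat2, Oasl2 and Trim30a did so downward, against 6.49% (13.3% in either direction).

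Usp18, the protease that removes Isg15 and damps the receptor, had 60.4, 107, 108 and 91.3 CPM in thrombus, 93.7, 109 and 108 CPM in vein wall and 42.5, 34.3 and 102 CPM in spleen Treg. Spleen 1 and 2 were the 2 lowest samples, but the summed spleen 3 and 4 lay among the vein wall samples, and the log2 fold changes were 0.62 ± 0.41 in thrombus and 0.80 ± 0.44 in vein wall against spleen (SE; adjusted p = 0.9997 and 0.9279, edgeR). 39.7% of its reads matched more than 1 place, with 30.3% in set 1, 0.0% in set 2 and 50.5% in set 3. Trim30a, a ubiquitin ligase of the Trim family, had 82.9, 116, 99.0 and 86.9 CPM in thrombus, 88.9, 101 and 103 CPM in vein wall and 131, 126 and 111 CPM in spleen Treg. It was the member that varied least within tissues (SD 0.17 on the log2 scale), its vein wall samples lay below the spleen samples, and thrombus 2 overlapped with the spleen. The difference was small, with a log2 fold change of -0.33 ± 0.34 in vein wall against spleen (adjusted p = 0.9651, edgeR).

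The Ifit genes encode proteins that bind foreign RNA and block its translation. Ifit1 had 22.5, 28.7, 24.3 and 18.5 CPM in thrombus, 31.5, 24.1 and 16.2 CPM in vein wall and 29.9, 29.3 and 40.5 CPM in spleen Treg, with the thrombus samples all below the spleen samples and thrombus 2 within 1 CPM of spleen 2. In set 2, which holds both of these, 98.8% of its reads matched more than 1 place, against 8.16% in set 1 and 6.45% in set 3. Its log2 fold change of thrombus against spleen was -0.50 ± 0.49 (SE; adjusted p = 0.9997, edgeR). Ifit3 was more variable, with 8.44, 59.8, 11.6 and 49.9 CPM in thrombus, 6.46, 8.44 and 27.9 CPM in vein wall and 35.4, 25.4 and 59.5 CPM in spleen Treg. Thrombus 2 and 4 reached the level of the spleen and thrombus 1 and 3 that of the lower vein wall samples. Its log2 fold change was -1.49 ± 0.76 in vein wall against spleen and 1.18 ± 0.72 in thrombus against vein wall (SE; adjusted p = 0.9151 and 0.9994, edgeR), and without the summed vein wall 3 and 4 these were -2.43 and 2.12. For Ifit3, 51.4% of reads matched more than 1 place, so that reads of its paralogs may be included. Ifit2 ranged from 5.84 CPM in thrombus 4 to 41.8 CPM in the summed vein wall 3 and 4.

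The oligoadenylate synthetase family holds enzymes whose product switches on RNase L, and proteins that resemble them. Oasl2 had 9.93, 9.06, 3.07 and 24.7 CPM in thrombus, 0, 7.41 and 1.95 CPM in vein wall and 11.9, 8.04 and 18.2 CPM in spleen Treg. The 0 in vein wall 1 allows up to 0.19 CPM at 3 reads, counting error only. The vein wall samples all lay below the spleen samples and overlapped with thrombus 3. The log2 fold changes were -2.03 ± 1.24 in vein wall against spleen and 1.90 ± 1.19 in thrombus against vein wall (SE; adjusted p = 0.9589 and 0.9994, edgeR), with the 0 of vein wall 1 included. Without vein wall 2 they were -3.64 and 3.53, and without vein wall 1 they were -1.42 and 1.31; without thrombus 4, thrombus against vein wall was 1.24. Oas1a ranged from 25.6 CPM in the summed vein wall 3 and 4 to 148 CPM in vein wall 1, and 48.9% of its reads matched more than 1 place. Oasl1 was low, at 0.107 to 19.8 CPM.

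Ifi44 and Rsad2 had the largest estimated differences of thrombus against spleen with tissue alone in the model, and both are low. Ifi44 had 3.05, 4.75, 0.635 and 0.464 CPM in thrombus, 7.73, 24.9 and 0 CPM in vein wall and 11.6, 10.3 and 0.894 CPM in spleen Treg, where the 0 allows up to 0.0748 CPM. The samples of every tissue were widely scattered, and the log2 fold change of -1.76 ± 1.47 had a 95% interval of -4.84 to 1.33 (adjusted p = 0.9997, edgeR). In thrombus against vein wall it was -2.28 ± 1.48 (adjusted p = 0.9994). That value was -0.80 without vein wall 2, -2.99 without thrombus 2, -2.86 without the summed vein wall 3 and 4 and -3.69 once the set was a covariate, and the value against spleen was -2.46 without thrombus 2. Rsad2, viperin, had 10.8, 0.112, 10.2 and 2.78 CPM in thrombus, 0.190, 14.9 and 14.5 CPM in vein wall and 4.56, 1.23 and 4.43 CPM in spleen Treg, with the lowest value of each tissue in set 2. Its log2 fold change was 0.80 ± 1.34 in thrombus against spleen with tissue alone in the model and -0.67 ± 1.30 with the set of files as a covariate (adjusted p = 0.9997 and 0.9977, edgeR), so that it has no settled direction.

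**Figure D4:**
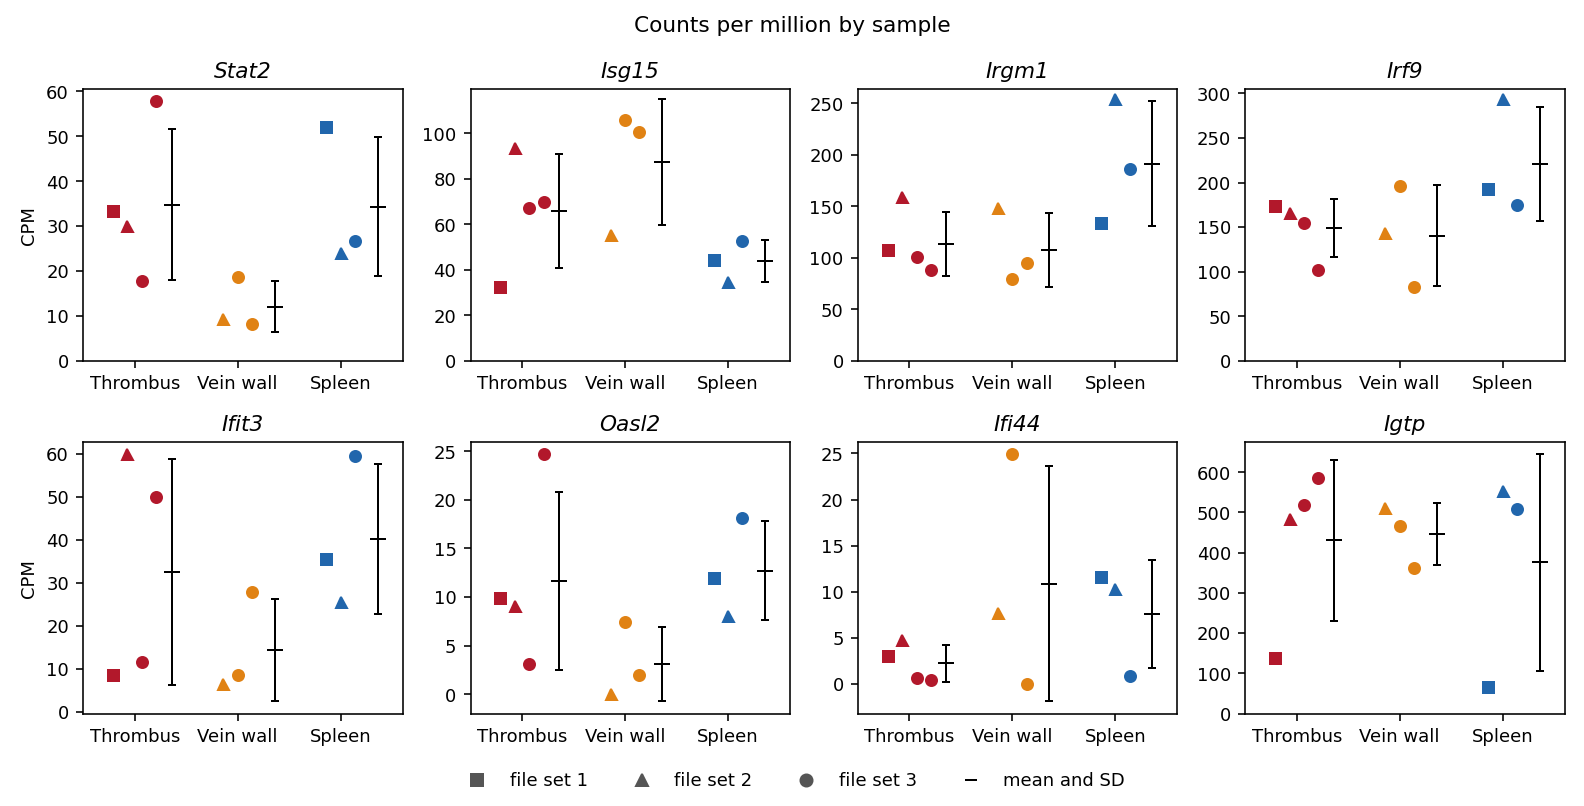
CPM of 8 interferon response genes by sample in thrombus, vein wall and spleen Treg, with the mean and SD at the right of each tissue and the set of files given by the marker. Stat2 is lowest in the 3 vein wall samples apart from the overlap with thrombus 3, Isg15 in vein wall lies above spleen, and Igtp is low in both samples of set 1.

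Rtp4, a chaperone of receptors that interferon induces, was lower in thrombus than in vein wall Treg at the unadjusted threshold. It had 58.9, 86.5, 57.4 and 48.6 CPM in thrombus, 85.3, 95.7 and 165 CPM in vein wall and 80.3, 85.7 and 131 CPM in spleen Treg. Thrombus 2 overlapped with vein wall 1, and the log2 fold change was -0.88 ± 0.37 (unadjusted p = 0.0304, adjusted p = 0.9994, edgeR), with 0.02 within set 2 and -1.24 within set 3. The within-set values thus do not share a direction. Bst2, tetherin, which holds budding viruses at the cell surface, had 89.2, 257, 138 and 78.0 CPM in thrombus, 170.1, 131 and 167 CPM in vein wall and 119, 127 and 153 CPM in spleen Treg, with its highest and its lowest value both in the thrombus.

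Ifi27l2a had 854, 1577, 1550.0 and 1292 CPM in thrombus, 1136, 2510.0 and 2080.0 CPM in vein wall and 1169, 1317 and 1887 CPM in spleen Treg, and the tissues overlapped. Its log2 fold change of -0.15 ± 0.33 in thrombus against spleen had a 95% interval of -0.84 to 0.55 (adjusted p = 0.9997, edgeR). Ifi35 had 163, 266, 271 and 288 CPM in thrombus, 213, 338 and 208 CPM in vein wall and 151, 199.9 and 222 CPM in spleen Treg. It was above the spleen within every set of files for both tissues, as were Parp9 in both tissues, Ifnar1 in the thrombus, and Isg15 and Usp18 in the vein wall. For Parp9 the difference of thrombus against spleen in set 1 was only 0.03, and 62.1% of its reads matched more than 1 place. For thrombus against spleen 3 members were higher and 11 lower within all 3 sets, against 12.8% and 15.4% of all genes. For vein wall against spleen 4 were higher and 15 lower within both sets that hold these tissues, against 24.9% and 28.6% of all genes. For thrombus against vein wall 9 were higher and 9 lower, against 22.8% and 22.5%.

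The remaining tested effectors overlapped between tissues in every comparison. Within the sets of files, Parp14, Samd9l and Xaf1 were lower in thrombus than in spleen in all 3, Eif2ak2 and Samd9l lower in vein wall than in spleen in both, and Dtx3l and Parp14 lower in thrombus than in vein wall in both. Parp9 and Dtx3l, partners in a complex of an ADP-ribosyltransferase and a ubiquitin ligase, ranged from 26.5 to 62.6 CPM and from 21.2 to 79.6 CPM, and their exons overlap on opposite strands over 458 bases. Parp14 ranged from 54.1 to 133 CPM, Eif2ak2, the RNA-activated kinase PKR, from 15.1 to 49.6 CPM, the exonuclease Isg20 from 110 to 261 CPM, Samd9l from 57.4 to 96.8 CPM and Xaf1 from 48.3 to 175 CPM. Mx1 had 106, 0 and 61 reads in thrombus libraries 1, 3 and 4, 101, 125 and 108 reads in vein wall libraries 2 to 4, and 154, 388 and 171 reads in spleen libraries 1, 3 and 4. As deposited RPKM these came to 0 to 1.71 in thrombus, 1.11 to 1.16 in vein wall and 1.68 to 2.59 in spleen Treg, after averaging the near-duplicate libraries. The thrombus overlaps with the others, while the vein wall values lay below the spleen values, and Mx1 has no test.

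Of the 8 GTPases among the members, Irgm1 had the largest estimated difference from the spleen in both tissues with tissue alone in the model, and Iigp1 with the set of files as a covariate. These GTPases act on membranes around intracellular microbes, and Irgm1 (chr11:48861968-48871683) is a regulator of the others that is also known to affect T cell survival. It had 107, 159, 101 and 88.1 CPM in thrombus, 149, 79.6 and 95 CPM in vein wall and 133, 254 and 186 CPM in spleen Treg, or 114 ± 31.0, 108 ± 36.1 and 191 ± 60.7 CPM (mean ± SD, n = 4, 3 and 3). Spleen 2 and the summed spleen 3 and 4 were the 2 highest samples, and spleen 1 lay below thrombus 2 and vein wall 1. The log2 fold change was -0.75 ± 0.36 in thrombus against spleen (95% interval -1.49 to -0.01; unadjusted p = 0.0486, adjusted p = 0.9997, edgeR) and -0.83 ± 0.38 in vein wall against spleen (unadjusted p = 0.0449, adjusted p = 0.8955). Every set of files had the lower value in thrombus and in vein wall, with -0.31, -0.68 and -0.98 in sets 1 to 3 for thrombus against spleen and -0.77 and -1.09 in sets 2 and 3 for vein wall against spleen. With the set as a covariate the log2 fold changes were -0.69 ± 0.26 and -0.86 ± 0.29 (adjusted p = 0.5095 and 0.375). Its reads came almost wholly from single matches, and the 2 ISRE cores of its promoter overlap and lie within the 60 bases before the start.

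Iigp1, a GTPase that acts on vacuoles of intracellular parasites, had 39.1, 143, 57.8 and 67.4 CPM in thrombus, 120.4, 58.1 and 65.6 CPM in vein wall and 85.6, 119 and 174 CPM in spleen Treg. Thrombus 2 and vein wall 1, both of set 2, lay among the spleen samples and the rest below. The log2 fold change of thrombus against spleen was -0.72 ± 0.44 (SE; adjusted p = 0.9997, edgeR), with -1.12 in set 1, 0.26 in set 2 and -1.47 in set 3. With the set as a covariate Iigp1 was at -0.89 ± 0.34 in thrombus and -0.96 ± 0.38 in vein wall against spleen (adjusted p = 0.5188 and 0.5309, edgeR). Igtp had 137, 483, 518 and 586 CPM in thrombus, 512, 467 and 362 CPM in vein wall and 65.6, 553 and 509 CPM in spleen Treg. Only thrombus 1 and spleen 1, the samples of set 1, were low, and the share of its reads with more than 1 match was 87.6% in set 1, 11.8% in set 2 and 95.7% in set 3. Igtp shares 162 exon bases with its neighbour Irgm2, a related regulator, so the level of both is uncertain. Irgm2 ranged from 30.8 CPM in thrombus 2 to 70.9 CPM in thrombus 1.

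Ifi47 had 226, 538, 217 and 216 CPM in thrombus, 628, 412 and 445 CPM in vein wall and 281, 501 and 518 CPM in spleen Treg. Thrombus 2 stood well above the other thrombus samples, and 97.9% of the gene's reads matched more than 1 place, so that its level too is uncertain. Gbp2, Gbp3 and Gbp7, guanylate-binding proteins that coat and lyse microbial vacuoles, ranged from 39.0 to 124 CPM, from 40.8 to 98.1 CPM and from 44.5 to 193 CPM, with overlap between tissues in every comparison. Of the 8 GTPases, 2 were above 0 and 6 below in thrombus against spleen (median -0.31), 2 and 6 in vein wall against spleen (median -0.49) and 5 and 3 in thrombus against vein wall (median 0.16). For the 22 tested effectors the counts were 7 and 15, 12 and 10, and 5 and 17, and for the 9 sensing and signalling genes 4 and 5, 3 and 6, and 4 and 5. Over all genes tested, 52.15%, 49.0% and 52.26% were above 0 in the 3 comparisons.

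The median within-tissue SD of the members was 0.52 on the log2 CPM scale, against 0.80 over all genes tested and 0.58 over the 3125 genes between the quartiles of the members' level. The members' median level was 6.24 on the log2 CPM scale, against 4.39 over all genes. Besides Trim30a, Samd9l was steady (0.26), and Ifi44 (1.98), Rsad2 (1.95), Oasl1 (1.87) and Oasl2 (1.34) were the most variable. The summed spleen 3 and 4 lay above a gene's mean over all samples for 32 of 39 members, and thrombus 3 did so for 11. The share of all genes was not computed for these counts. The median deviation from a gene's mean was 0.23 for members and 0.08 for all genes in the summed spleen 3 and 4. In thrombus 3 it was -0.08 and 0.02. These samples had the largest and the smallest effective library size, 77222604 and 9454573 reads. The summed CPM of the members ran from 3957 in thrombus 1 to 6500 in vein wall 2, and thrombus 4 held both the highest value of 6 members and the lowest of 8. In bulk samples, fewer cells that express a gene and less RNA per cell cannot be told apart.

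Other genes of the interferon pathway were read from 6 further lists, and none of their members passed the adjusted threshold in edgeR in any comparison, with or without the set of files as a covariate. These were 13 genes of gamma interferon and JAK-STAT signalling, 54 other antiviral genes, 16 other interferon-induced GTPases, 17 genes of antigen presentation, 11 nucleic acid sensors and adaptors and 10 negative regulators. In thrombus against spleen 6, 22, 3, 6, 4 and 6 of these were above 0, in that order, and in vein wall against spleen 7, 24, 3, 9, 4 and 3, while in thrombus against vein wall they were 8, 27, 5, 8, 7 and 6. Of all genes tested, 52.15%, 49.0% and 52.26% lay above 0 in these 3 comparisons. Ifngr1, the ligand-binding subunit of the gamma interferon receptor, had 793, 578, 509.8 and 661 CPM in thrombus, 859, 589 and 543 CPM in vein wall and 247, 399 and 393 CPM in spleen Treg. All thrombus and all vein wall samples lay above all spleen samples, against 2.5% and 6.76% of all genes tested. Ifngr1 is among the genes chosen after their values were seen. Its log2 fold changes were 0.88 ± 0.32 in thrombus and 0.94 ± 0.33 in vein wall against spleen (SE; adjusted p = 0.8496 and 0.7524, edgeR). With the set of files as a covariate the adjusted p were 0.1693 and 0.198. Ifngr2, the second subunit, averaged 61.7 ± 41.9 CPM in thrombus, 40.1 ± 26.1 CPM in vein wall and 22.2 ± 8.52 CPM in spleen Treg (SD), with a log2 fold change of 1.47 ± 0.66 in thrombus against spleen (adjusted p = 0.9997, edgeR).

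Of the 16 other GTPases, 13 were below 0 and 3 above in both thrombus and vein wall against spleen, with medians of -0.56 and -0.44, and the spleen samples are common to both. Over all genes tested, 47.85% and 50.97% were below 0, with medians of 0.03 and -0.01. Gbp10 had 81.4, 21.6, 33.1 and 47.0 CPM in thrombus, 25.8, 19.5 and 5.81 CPM in vein wall and 114, 46.9 and 77.4 CPM in spleen Treg. Its vein wall samples all lay below its spleen samples, against 6.49% of all genes tested. The log2 fold change was -2.22 ± 0.62 (unadjusted p = 0.00189, adjusted p = 0.4071, edgeR). Ifitm1, which blocks viral entry at membranes, had 4.02, 146, 0.423 and 1.48 CPM in thrombus, 0.0633, 0 and 0 CPM in vein wall and 0.421, 0 and 0.0130 CPM in spleen Treg. The value of thrombus 2 leads it, in the sample with the high macrophage and dendritic cell sums, whose part in it was not tested. The related Ifitm3 had 13.0, 167, 11.5 and 11.8 CPM in thrombus, 37.9, 12.5 and 18.1 CPM in vein wall and 9.54, 1.72 and 12.4 CPM in spleen Treg, again with thrombus 2 the highest. Cmpk2, a mitochondrial nucleotide kinase that lies beside Rsad2 in the genome, had 13.6, 6.15, 0.740 and 4.17 CPM in thrombus, 3.93, 1.02 and 0.948 CPM in vein wall and 4.63, 6.43 and 10.2 CPM in spleen Treg. All its vein wall samples lay below all its spleen samples, against the same 6.49% of all genes (log2 fold change -1.85 ± 1.28, adjusted p = 0.9604, edgeR). Socs1, an inhibitor of JAK kinases that interferon itself induces, had 19.3, 5.93, 97.3 and 23.3 CPM in thrombus, 5.13, 25.1 and 75.8 CPM in vein wall and 106, 31.7 and 163 CPM in spleen Treg, with overlap between tissues and the lowest value of each tissue in set 2 (log2 fold changes -1.46 ± 1.04 and -1.50 ± 1.14 against spleen, adjusted p = 0.9997 and 0.9613, edgeR).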

How the data were processed

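RNA of sorted Treg was sequenced as 12 libraries, from 2 ng of total RNA amplified over 12 cycles as full-length cDNA, per the labels' protocols. The authors deposited raw read counts per gene on GRCm38, per the file headers and the submitters' processing notes, together with RPKM values, which were used here only to compare levels between genes. Total exon reads, in which a read with several matches is counted, were used. No source used here names the aligner or counter. The counts are not stated to use strand.

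The 3 sets of files differ in their gene models, and genes were joined by symbol or synonym at the same locus. The joined genes held 92.2 to 96.3% of exon reads, and 13.6 to 21.8% of exon reads had several matches. Depth ran from 9719151 to 55386086 exon reads per library. CPM values were computed with TMM library sizes. A count of 0 was taken to allow up to 3 reads. Intervals and such floors cover counting error or the spread between samples only.

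All 3 tissues were fitted together with edgeR 4.0.16 in R 4.3.3 (TMM, filterByExpr, robust quasi-likelihood F test, tissue alone in the model), with Benjamini-Hochberg adjustment over 11689 genes and a threshold of 0.05. The edgeR test was checked on simulated data, with the recovery given beside the intervals. Alternatives were the set of files as a covariate, DESeq2 1.42.0, other size factors, no filter, unique reads, separate libraries, a replicate block, 2 tissues only, and leaving out sets or samples. Within-set values are differences of mean log2(CPM + 0.5).

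Named with values are the members with an adjusted p under 0.05 in either edgeR model, the 5 largest differences per comparison among members of at least 5 CPM, the 6 highest RPKM, and the receptor and factor genes, plus, from the further lists together, the 2 largest differences per comparison. Genes given per sample beyond this rule (Usp18, Trim30a, Ddx58, Ifit1, Ifngr1, Ifngr2 and Socs1) were chosen after their values were seen. The members, lists and tests were chosen with earlier results of these data known.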

Additional observations from a re-analysis of the deposited data

Results flagged for a closer look

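In 39 groups of 4 thrombus samples, 2 members had a sample far from the other 3 by Dixon's test, and chance marks about 1 in 20 such groups. Oasl1 stood at 19.75 CPM in thrombus 4, against 1.16 to 2.21 CPM in the other thrombus samples. The erythroid genes summed to 1556 CPM in thrombus 4, against 6.81 and 8.89 CPM in thrombus 1 and 3 and 2043 CPM in thrombus 2, and their part in this value was not tested. Ifi47 stood at 538.3 CPM in thrombus 2, against 216 to 226 CPM in the other thrombus samples, and 97.9% of its reads had more than 1 match. Thrombus 2 is also the sample with the high sum of macrophage and monocyte genes, whose part in this value was not tested.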

How the results depend on the processing

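No member passed the adjusted threshold in edgeR or DESeq2 in any of the 3 comparisons under any alternative (0 of 39 members in all 50 fits of the count, leaving out each sample included). The smallest adjusted p of any member in any fit was 0.1844, for Stat2 in vein wall against spleen with a replicate block over 12 separate libraries. Of 350 fits of 21 member fold changes, 348 kept their direction without passing, and 2 changed sign. Ifi44 in thrombus against vein wall went to 0.11 with the replicate block over 12 separate libraries, against -1.86 over 12 separate libraries without the block and -2.28 in the main model, and Rsad2 in thrombus against spleen went to -0.67 with the set of files as a covariate; the cause was not tested.

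The members' median log2 fold change ran from -0.37 to -0.16 in thrombus against spleen, from -0.15 to -0.01 in vein wall against spleen and from -0.18 to 0.00 in thrombus against vein wall when samples were left out in turn. Over 12 separate libraries the vein wall against spleen median was 0.003138, so that its sign is not settled.

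The labels number the samples 1 to 4 within each tissue as exp and do not say what a number shares, so whether same-numbered samples come from the same mice or day is unknown. Deviations of same-numbered samples correlated at 0.088 to 0.4 in thrombus and spleen, all 4 pairs being within one set of files. They correlated at -0.072 to 0.052 in vein wall and spleen and at -0.018 to 0.189 in thrombus and vein wall, where the pairs numbered 1 and 2 cross sets. Not every pair was over 0.1, so the samples were not treated as paired. In the order of the 3 comparisons, edgeR called 17, 13 and 0 genes of all tested in the main model, 35, 51 and 0 over 12 separate libraries, and 52, 67 and 0 over 12 separate libraries with the replicate block, whose member medians were -0.29, -0.05 and -0.08. DESeq2 called 105, 119 and 10 genes, the fit with the set of files 53, 48 and 0, no filter 80, 66 and 2, unique reads 13, 7 and 0, and leaving out 1 sample 6 to 34, 5 to 26 and 0 to 1. Without set 1, chosen after seeing the data, 25, 25 and 0 genes and 0 members passed. Depth and 3 or 4 samples per tissue limit what can be seen, most of all for Ifi44, Rsad2, Oasl1 and Oasl2.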
